A study of Mus musculus with 2 samples.

Results

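H3K9me2 peaks near the ends of the mouse autosomes were examined in embryonic cortex. A peak belonged to the centromere-proximal end when its summit lay from 3 Mb to 13 Mb on chromosomes 1 to 19, and to the telomeric end when it lay within 10 Mb of the chromosome end (build mm10). By this rule 1007 of the 6996 peaks of the series were members, 103 of 743 in the wild-type list and 904 of 6253 in the transgenic list. The rule used positions only, so the strength, gene content and density of these peaks were free to vary. The wild-type library came from cortex of C57BL/6 embryos at embryonic day 15.5, and the TBC1D3-transgenic library from cortex of the same strain and day. TBC1D3 is a hominoid gene that mice lack, and the promoter of the transgene and the number of embryos per library are not given in the sources used here. Each genotype had 1 library, so no p-value was computed, intervals are 95% and cover counting error alone, and a difference between the lists describes these libraries and has no replicate check.

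Mouse autosomes carry the centromere at one tip, so that one end of each chromosome runs into centromeric satellite repeats and the other into telomere repeats. H3K9me2 is a repressive mark that the methyltransferases G9a and GLP write over silent genes along the chromosome arms, whereas the satellites next to the centromere are the classical site of H3K9me3, written by Suv39h enzymes and read by HP1 proteins. The satellites themselves are not assembled, and uniquely mapped reads reach only the sequence beside them. The zones therefore hold genes and unique sequence next to the repeats, not the centromere or the telomere itself.

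The wild-type library kept 26735120 ChIP tags after filtering and the transgenic library 20697113. The median end peak was 57 bp wide at the centromere-proximal and 60 bp at the telomeric end of the wild type, and 116 bp and 114 bp wide in the transgenic list. The peak caller extended reads to 57 bp in the wild type and to a greater length in the transgenic library. In each library the narrowest end peak had exactly this length, and the medians lay at or close to it. The widths follow this setting, so they cannot compare the genotypes. Its part in the differing length of the lists was not tested. The wild-type end peaks rested on 5 to 9 fragments and the transgenic ones on 5 to 13. Wild-type end peaks had a q of 0.274 or more, and transgenic ones of 0.0673 or more, so no single peak passed a q of 0.05. The listed q was at its upper limit for 43 of 48 centromere-proximal and 54 of 55 telomeric peaks of the wild type. A q of at most 0.1 was listed for 0 wild-type peaks at either end. In the transgenic list it was listed for 119 centromere-proximal and 87 telomeric peaks.

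Few promoter windows of 250 bases were touched by an end peak, and 3 of them are shown for their sequence. Windows this short cover little sequence, so the counts cannot show that peaks avoid promoters. Of the 2110 promoter windows of the centromere-proximal zones (RefSeq, GRCm38.p6), a wild-type peak touched 1 and transgenic peaks touched 3. None of the 3355 windows of the telomeric zones was touched in either library. In the interior the counts were 1 and 17 of 25931. The 250 bases before a listed start of Prlr, C9 and Gm40264 follow, 5′ to 3′ on the plus strand, with the bases inside the peak in capitals. They lie at chr15:10223656-10223905, chr15:6445096-6445345 and chr5:9034496-9034745.
Prlr: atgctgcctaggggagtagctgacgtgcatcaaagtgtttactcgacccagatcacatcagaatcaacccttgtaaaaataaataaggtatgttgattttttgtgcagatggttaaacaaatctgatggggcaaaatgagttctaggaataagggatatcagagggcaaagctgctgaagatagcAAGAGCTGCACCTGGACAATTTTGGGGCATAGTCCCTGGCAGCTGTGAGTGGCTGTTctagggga
C9: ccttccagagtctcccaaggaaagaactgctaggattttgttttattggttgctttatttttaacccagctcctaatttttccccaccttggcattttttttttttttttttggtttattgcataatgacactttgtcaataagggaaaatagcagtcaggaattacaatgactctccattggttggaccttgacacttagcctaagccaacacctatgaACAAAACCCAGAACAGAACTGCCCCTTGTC
Gm40264: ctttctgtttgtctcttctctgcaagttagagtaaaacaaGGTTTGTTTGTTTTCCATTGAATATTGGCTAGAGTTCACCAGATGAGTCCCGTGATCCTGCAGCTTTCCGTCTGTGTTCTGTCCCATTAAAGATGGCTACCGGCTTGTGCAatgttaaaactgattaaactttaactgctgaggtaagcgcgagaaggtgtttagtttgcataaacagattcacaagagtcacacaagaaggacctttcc
Prlr encodes the prolactin receptor. The start shown is an internal one of several that RefSeq lists, inside the gene body (10177238 to 10349190), and the wild-type peak ran from 65 to 9 bases before this start (5 fragments, fold 3.69, q 1). C9 encodes a terminal complement component. Its transgenic peak began 30 bases before the start and ended 132 bases after it (6 fragments, fold 3.45, q 0.216). Gm40264 is a predicted gene, and its transgenic peak lay from 210 to 100 bases before the start (7 fragments, fold 4.31, q 0.0895). The remaining peak, in the transgenic list, overlapped the first 7 bases of the window of Cabp2, a calcium-binding protein gene. The telomere repeat unit TTAGGG, searched on both strands, was in none of these 4 stretches of 250 bases, and it was in 9.30% of all 31396 promoter stretches on chromosomes 1 to 19. Promoter stretches had a median GC content of 51.6% at the centromere-proximal end, 53.6% at the telomeric end and 52.4% in the interior.

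In the transgenic library the telomeric end carried fewer peaks than the interior, and the centromere-proximal end did not. The telomeric zones held 394 peaks in 190 Mb, or 2.07 peaks per Mb (1.87 to 2.29), and the interior held 5188, or 2.56 per Mb (2.49 to 2.63). The ratio was 0.810 (0.729 to 0.897). The centromere-proximal zones held 510 peaks, or 2.68 per Mb (2.46 to 2.93), a ratio of 1.05 (0.955 to 1.15) to the interior. Between the ends the ratio was 1.29 (1.13 to 1.48) in favour of the centromere-proximal one. This last ratio depended on where the zone ended, since zones of 5 Mb gave 1.07 (0.873 to 1.30) and zones of 20 Mb gave 1.06 (0.966 to 1.16). The telomeric ratio to the interior was 0.808 (0.698 to 0.932) with 5 Mb and 0.892 (0.829 to 0.959) with 20 Mb. The centromere-proximal ratio to the interior also depended on zone size. It was 0.862 (0.747 to 0.989) with 5 Mb, an interval below 1, and 0.946 (0.880 to 1.02) with 20 Mb.

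With zones of 10 Mb, no difference between the wild-type ends, or between either end and the interior, was detectable. The wild-type telomeric zones held 55 peaks, or 0.289 per Mb (0.218 to 0.377), the centromere-proximal zones 48, or 0.253 (0.186 to 0.335), and the interior 639, or 0.315 (0.291 to 0.341). The ratios to the interior were 0.918 (0.684 to 1.21) for the telomeric and 0.801 (0.584 to 1.07) for the centromere-proximal end, and the ratio between the ends was 0.873 (0.580 to 1.31). Each of the 3 intervals includes 1. Other zone sizes ended this. With zones of 5 Mb the ratio between the ends was 0.367 (0.166 to 0.753) and that of the centromere-proximal end to the interior 0.366 (0.182 to 0.659). With zones of 20 Mb they were 0.677 (0.509 to 0.897) and 0.704 (0.554 to 0.886), and these 4 intervals exclude 1, with the centromere-proximal end the sparser. The transgenic list was 10.6 times as dense as the wild-type list at the centromere-proximal end (7.89 to 14.6), 7.16 times at the telomeric end (5.39 to 9.68) and 8.12 times in the interior (7.48 to 8.83). The first of these divided by the second was 1.48 (0.965 to 2.28), an interval that includes 1. With zones of 5 Mb the transgenic list was 19.1 times as dense at the centromere-proximal end (10.5 to 38.8) and 6.57 times at the telomeric end (4.46 to 9.99). With zones of 20 Mb these were 10.9 (8.70 to 13.7) and 6.94 (5.75 to 8.42), and at neither size did the intervals of the ends overlap. These intervals cover counting error alone, and the value of 19.1 rests on 11 wild-type peaks. The ratio between the values of the ends is not given for these sizes, so the lack of overlap is a description.

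At the centromere-proximal end, both libraries had fewer peaks near the assembled start than farther in. The wild-type list held 11 peaks in the outer 5 Mb and 37 in the next 5 Mb, a ratio of 0.297 (0.137 to 0.595). Within the outer 2 Mb of the 19 chromosomes it held 1 peak. In the transgenic list the outer 5 Mb held 210 peaks and the next 5 Mb 300, a ratio of 0.70 (0.584 to 0.838). The outermost 1 Mb was thinnest there, at 1.47 peaks per Mb (0.979 to 2.13). The outer 5 Mb had fewer peaks than the next 5 Mb on 13 of 19 chromosomes in the wild type and more on 2, and in the transgenic list fewer on 12 and more on 6. In both libraries the densest step lay 6 to 7 Mb from the assembled start, with 11 wild-type peaks (0.579 per Mb) and 81 transgenic peaks (4.26 per Mb). Across the zone boundary, the step just inside held 6 wild-type and 45 transgenic peaks and the step just outside 3 and 49. The split at 5 Mb was looked at after the profile had been seen. Its outer part also had more coding genes, 866 against 552, and the part this plays was not tested.

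At the telomeric end no difference between the outer and inner parts was detectable. The wild-type list held 30 peaks in the outer 5 Mb and 25 in the inner, a ratio of 1.2 (0.682 to 2.13), and the transgenic list held 197 in each, with an interval of 0.817 to 1.22 around a ratio of 1. The transgenic steps of the zone ran from 1.63 to 2.53 peaks per Mb, all below the interior mean of 2.56, the highest of them only slightly. Counts rose from 45 peaks in the last step inside the boundary to 55 and 71 in the first steps outside. They then fell back, to 31 peaks from 17 to 18 Mb, as many as in the outermost step. The transgenic to wild-type ratio was 19.1 (10.5 to 38.8) in the outer 5 Mb of the centromere-proximal end and 8.11 (5.75 to 11.7) in the next 5 Mb, a ratio of ratios of 2.35 (1.14 to 5.23). At the telomeric end that ratio of ratios was 0.833 (0.452 to 1.53).

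**Figure D1:**
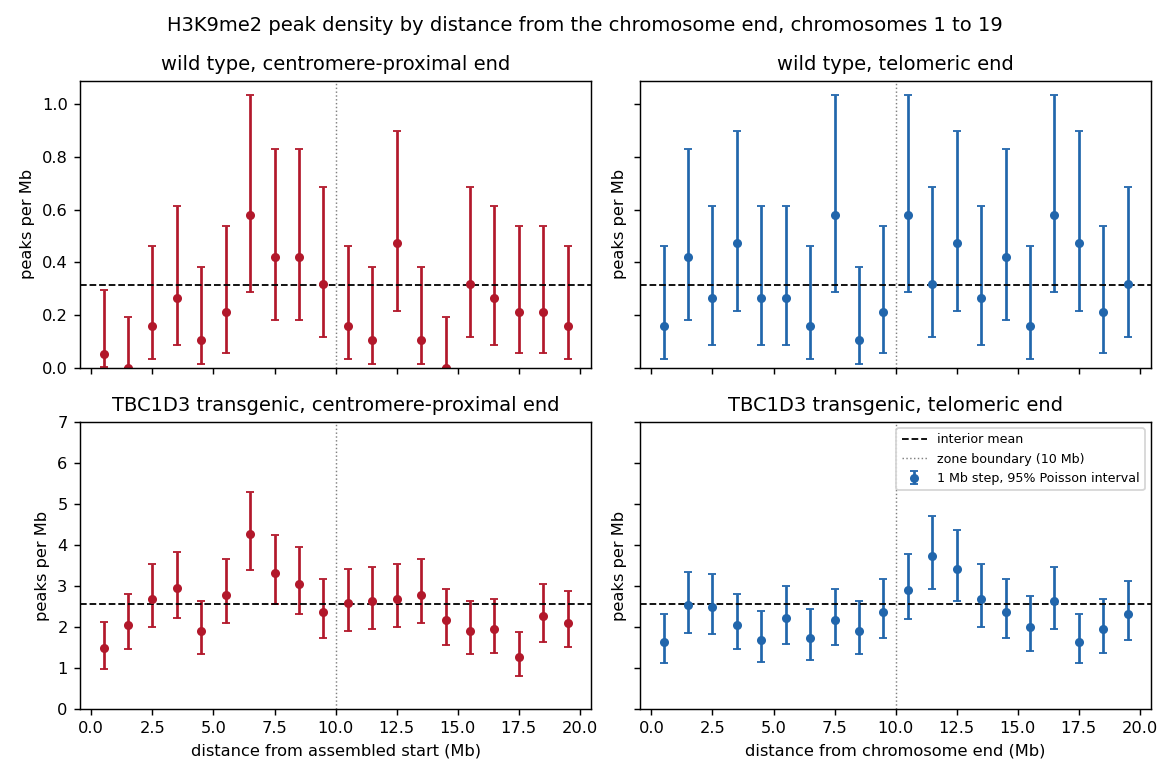
Peaks per Mb in steps of 1 Mb from the assembled start (left) and from the chromosome end (right), summed over chromosomes 1 to 19, for the wild type (top) and the TBC1D3-transgenic library (bottom). Points are densities with 95% Poisson intervals and the dashed line is the interior mean; the first step of the centromere-proximal end holds 1 wild-type and 28 transgenic peaks, and transgenic densities at the telomeric end stay below the interior mean out to 10 Mb.

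The outermost peak lay close to the assembled tip in the transgenic list, at a median of 0.738 Mb from the assembled start and 0.726 Mb from the chromosome end. The nearest of all lay 80.4 kb from the start of chromosome 1 (5 fragments, fold 3.24), and its nearest coding gene, Xkr4, was 119 kb away. At the other end the nearest lay 104 kb from the tip of chromosome 7 (5 fragments, fold 3.02), 12.9 kb from Mrgprd, a sensory neuron receptor gene. Wild-type peaks began farther in, at medians of 6.18 Mb and 2.18 Mb. The closest were 0.678 Mb from the start of chromosome 5, in Tmbim7 (fold 3.43), and 0.382 Mb from the end of chromosome 19, in Grk5, a receptor kinase gene (fold 3.83). A shorter list gives later first peaks by its length alone, so these distances describe the lists and do not compare genotypes. The farthest first wild-type peak was 34.8 Mb from the assembled start, on chromosome 7.

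**Figure D2:**
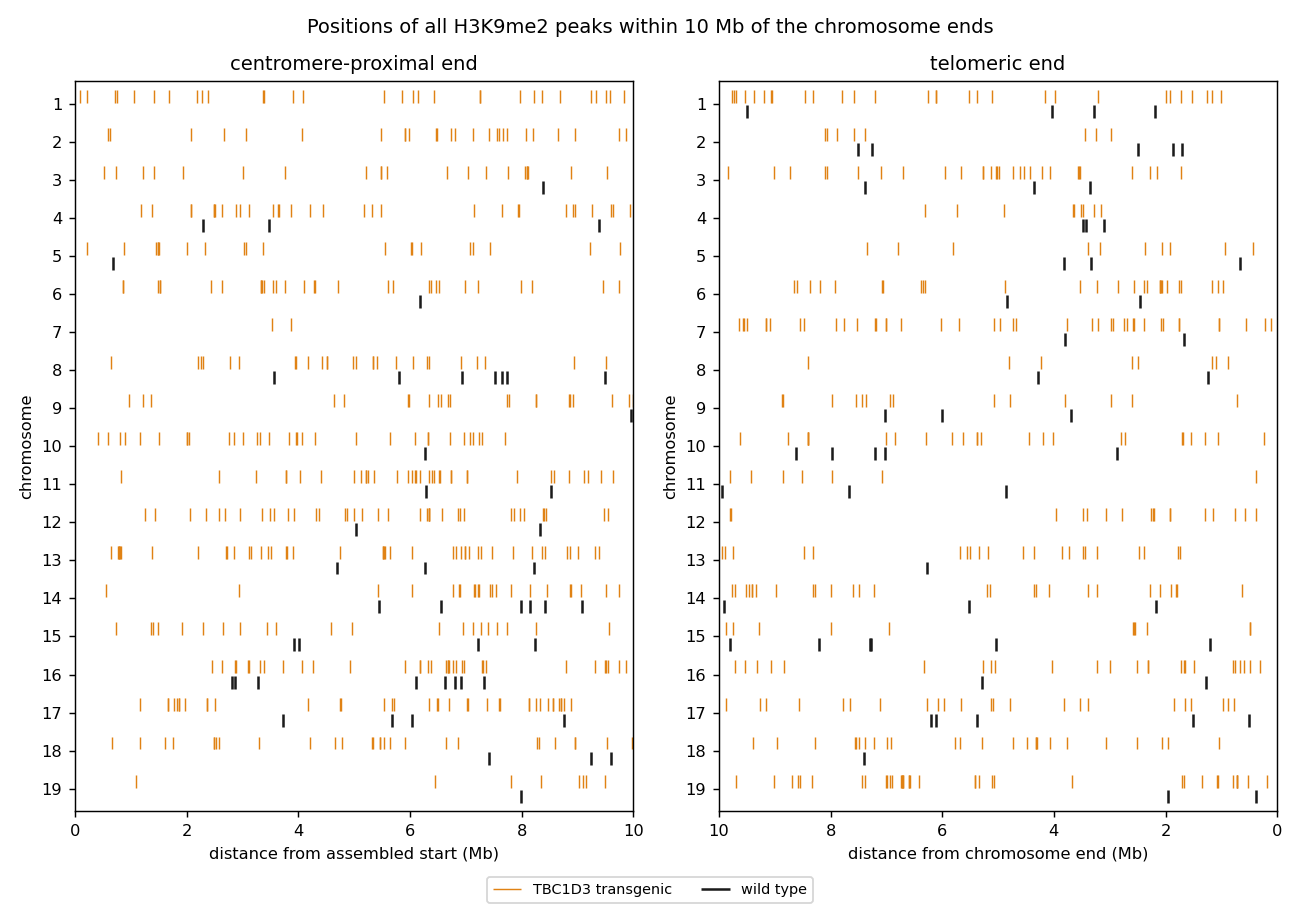
Every peak of the end zones, by chromosome (rows) and distance from the assembled start or the chromosome end in Mb, with transgenic peaks in orange and wild-type peaks in black. The 48 wild-type peaks of the centromere-proximal end lie mostly in the inner 5 Mb, and the row of chromosome 7 holds 2 transgenic peaks there against 42 at its telomeric end.

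End counts differed widely between chromosomes. In the transgenic list the centromere-proximal end held from 2 peaks on chromosome 7 to 44 on chromosome 13, with a median of 28, and the telomeric end from 7 on chromosome 11 to 42 on chromosome 7, with a median of 23. The variance of these counts over chromosomes was 3.92 times the mean at the centromere-proximal end and 5.19 times at the telomeric end, where counting error alone gives 1. The intervals above are therefore narrower than the spread between chromosomes. The telomeric end was sparser than the interior of its own chromosome on 13 of 19 chromosomes, with a mean of -0.50 peaks per Mb for telomeric minus interior (SD 1.07, SE 0.246, n = 19 chromosomes). Against the centromere-proximal end it was sparser on 15 of 19, and centromere-proximal minus telomeric averaged 0.611 peaks per Mb (SD 1.75, SE 0.401). Both mean differences are smaller than the spread between chromosomes. On chromosomes 3, 7, 14 and 19 the telomeric end was the denser one, by far the most on chromosomes 7 and 19, with 2 and 8 peaks at the centromere-proximal end and 42 and 38 at the telomeric end. Without these 2 chromosomes, which were singled out after their values were seen, the ratio between the ends was 1.59 (1.38 to 1.84) and the telomeric ratio to the interior 0.715 (0.636 to 0.802).

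Whole blocks of the interior gave a scale for these counts. The 192 interior blocks of 10 Mb held 25.5 transgenic peaks on average (SD 8.44), with a range of 1 to 53. The 19 telomeric blocks averaged 20.7 (SD 10.4) and the 19 centromere-proximal blocks 26.8 (SD 10.3), and all 38 fell inside the interior range. That range is set by the extremes of 192 blocks, so it cannot show whether the ends differ. In the wild type, interior blocks held 3.11 peaks (SD 2.36), telomeric blocks 2.89 (SD 1.56) and centromere-proximal blocks 2.53 (SD 2.37).

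Wild-type counts per end ran from 0 to 8 at the centromere-proximal end, with a median of 2, and from 0 to 6 at the telomeric end, with a median of 3. The centromere-proximal ends of chromosomes 1, 2 and 7 and the telomeric end of chromosome 12 held 0 peaks, which allows up to 0.369 peaks per Mb in each (upper bound of the exact Poisson interval), above the interior mean of 0.315. Of the interior blocks 9.38% also held 0. The most were 8 on chromosome 16 and 7 on chromosome 8, both centromere-proximal. On chromosome 16 that was 0.80 peaks per Mb against 0.173 in its interior. Of the 19 chromosomes, 15 had a lower wild-type density at the centromere-proximal end than in their interior and 11 at the telomeric end.

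**Figure D3:**
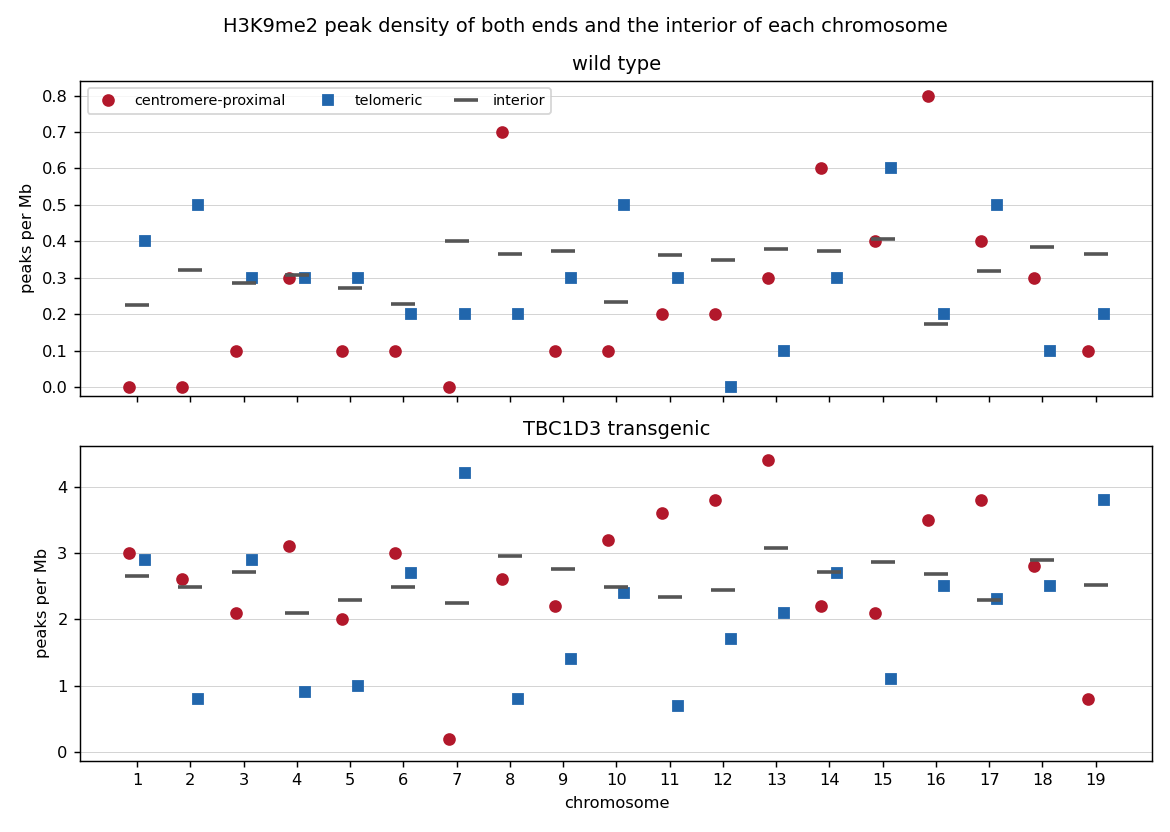
Peaks per Mb at the centromere-proximal end (red circles), the telomeric end (blue squares) and in the interior (grey bars) of each chromosome, for the wild type (top) and the transgenic library (bottom). Interior bars average far more sequence than the 10 Mb of an end, so their narrower range is not comparable; in the transgenic list chromosome 7 has the lowest centromere-proximal and the highest telomeric value.

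Coding gene number differed between the zones. Telomeric zones had 10.4 coding genes per Mb, the interior 8.47 and centromere-proximal zones 7.46. The centromere-proximal ends of chromosome 19 and chromosome 7, which held 8 and 2 transgenic peaks, had 324 and 181 coding genes, the most of all 19. The first 10 assembled Mb of chromosome 7 hold vomeronasal receptor and zinc finger gene families. The telomeric end of chromosome 11, with 206 coding genes, held 7 transgenic peaks, and that of chromosome 7 held 42 with 172 coding genes, so gene number did not order all ends. Over the 19 telomeric ends, transgenic peak counts and coding gene counts were related with r = -0.43 (Pearson) and rho = -0.47 (Spearman). Over the centromere-proximal ends r was -0.61 and rho -0.13. These values describe ends that share 1 library.

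In the transgenic list both ends were sparser than the interior where a 1 Mb window held over 5 coding genes. In windows with 0 coding genes the transgenic density was 3.50 per Mb at the centromere-proximal end, 2.44 at the telomeric end and 2.74 in the interior. In windows with 1 to 5 coding genes, the transgenic density was 3.59 per Mb at the centromere-proximal end (3.21 to 4.01), 3.0 at the telomeric end (2.62 to 3.42) and 3.19 in the interior (3.07 to 3.32). In windows with 6 to 15 coding genes it was 1.82, 1.68 and 2.29, and in windows with more than 15 it was 0.846, 0.951 and 1.49. In these 2 classes both ends lay below the interior, with telomeric ratios of 0.734 (0.60 to 0.890) and 0.637 (0.448 to 0.883) and centromere-proximal ratios of 0.795 (0.644 to 0.972) and 0.567 (0.352 to 0.868). In the wild type, telomeric ratios to the interior ran from 0.402 in windows with 0 coding genes to 1.05 in those with more than 15, and every wild-type interval, at both ends, included 1. When the transgenic interior was given the gene classes of the telomeric end it led to 473.5 peaks where 394 were listed, a ratio of 0.832 (0.752 to 0.918). The same for the centromere-proximal end was 1.01 (0.928 to 1.11). In the wild type the adjusted ratios were 0.932 (0.702 to 1.21) and 0.780 (0.575 to 1.03). Mappability was not analysed here.

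**Figure D4:**
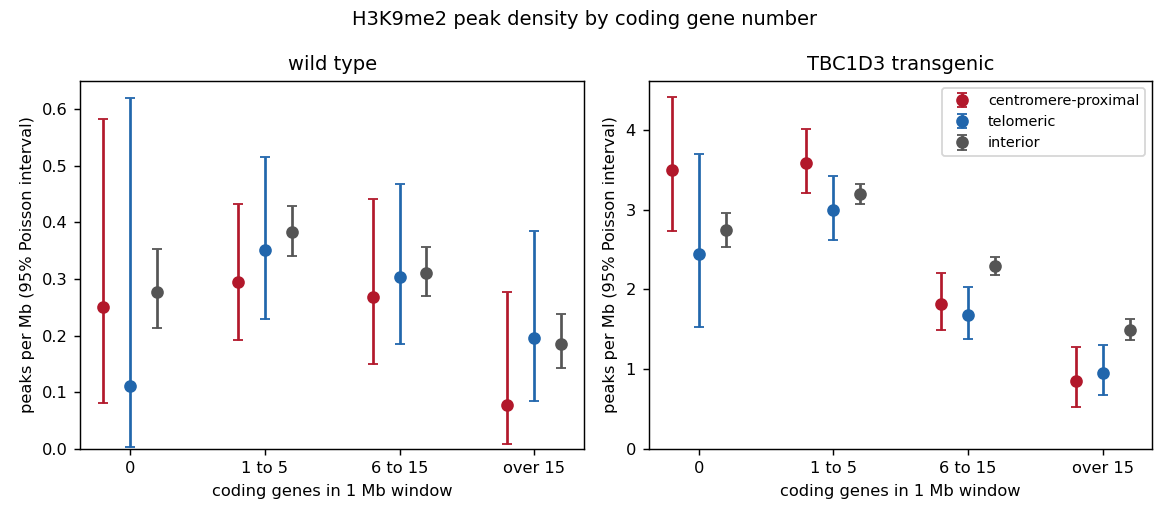
Peaks per Mb, with 95% Poisson intervals, in 1 Mb windows grouped by their number of coding genes, for the wild type (left) and the transgenic library (right), with the zones in colour. Transgenic density falls from windows with 1 to 5 coding genes to windows with more than 15 in all 3 zones, from 3.59 to 0.846 per Mb at the centromere-proximal end.

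In the transgenic list, stronger peaks made up a larger share at the centromere-proximal than at the telomeric end. The lists hold 24.9% of wild-type and 32.5% of transgenic peaks of chromosomes 1 to 19 at a −log10 p of at least 5. In the transgenic list such peaks were 176 of 510 at the centromere-proximal end, or 34.5% (30.4 to 38.8), and 110 of 394 at the telomeric end, or 27.9% (23.5 to 32.6). The odds ratio between the ends was 1.36 (1.01 to 1.83). In the wild type they were 16 of 48, or 33.3% (20.4 to 48.4), and 9 of 55, or 16.4% (7.77 to 28.8), and the odds ratio between the ends was 2.56 (0.919 to 7.38), an interval that includes 1. A fold enrichment of at least 5 was reached by 20 transgenic peaks at the centromere-proximal end (3.92%) and 6 at the telomeric end (1.52%), against 2.62% in the interior. In the wild type it was reached by 8 (16.7%) and 2 (3.64%), against 8.14%. Neither end was shown to differ from the interior in these shares, since all intervals of those odds ratios include 1. Median fold was 3.95 and 3.96 at the centromere-proximal and telomeric ends in the wild type, and 3.63 at both ends in the transgenic list. The libraries differed in read extension and depth, so folds, also those of single genes below, cannot compare the genotypes.

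In the transgenic list the share of peaks with a close neighbour was higher at the centromere-proximal end than in the interior. At that end 74 of 510, or 14.5% (11.6 to 17.9), had another transgenic peak within 10 kb, against 45 of 394 at the telomeric end, or 11.4%, and 9.60% (8.81 to 10.4) in the interior. A peak and its neighbour count each other, so these intervals are too narrow and cannot show that the shares differ. Of the 103 wild-type end peaks 0 had a wild-type neighbour within 10 kb, which the counts at each end allow to be up to 7.40% and 6.49% (upper bounds of the intervals).

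**Figure D5:**
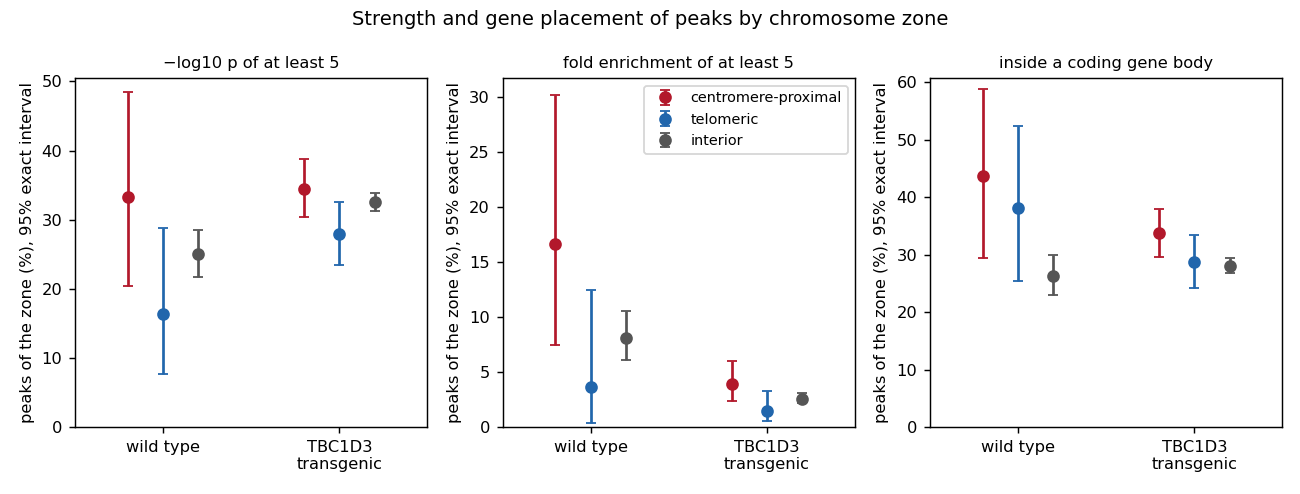
Share of peaks with a −log10 p of at least 5 (left), with a fold enrichment of at least 5 (middle) and inside a coding gene body (right), by zone and library, with exact 95% binomial intervals. In both libraries the centromere-proximal point lies above the telomeric one in all 3 panels, with intervals that overlap.

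At the centromere-proximal end more peaks than in the interior lay inside coding genes. Of the 48 wild-type peaks there, 21 lay in a coding gene body, or 43.8% (29.5 to 58.8). The share was 21 of 55 at the telomeric end, or 38.2% (25.4 to 52.3), and 26.3% (22.9 to 29.9) in the interior. The odds ratio to the interior was 2.18 (1.14 to 4.12) and 1.73 (0.926 to 3.17). In the transgenic list the shares were 33.7% (29.6 to 38.0), 28.7% (24.3 to 33.4) and 28.1% (26.9 to 29.3), with odds ratios of 1.30 (1.07 to 1.58) and 1.03 (0.813 to 1.30). Coding genes cover 38.3% of the centromere-proximal zones, 45.1% of the telomeric zones and 40.7% of the interior. Coding genes over 1 Mb held 35 of the 510 transgenic peaks at the centromere-proximal end, or 6.86% (4.83 to 9.42), against 3.55% in the interior. With their peaks left out, which lowers the share by construction and leaves fewer peaks, the odds ratio was 1.19 (0.956 to 1.47) in the transgenic list and 1.94 (0.946 to 3.85) in the wild type, and neither interval then excludes 1. At the telomeric end of the wild type it became 1.92 (1.01 to 3.56). Other gene bodies held 7.65% of transgenic peaks at the centromere-proximal end, 11.7% at the telomeric end and 10.9% in the interior.

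Genes with a peak were counted next. On chromosomes 1 to 19, 0.954% of coding genes held a wild-type and 5.75% a transgenic peak in the body or within 2 kb. Among the 1418 coding genes of the centromere-proximal zones 19 held a wild-type peak (1.34%) and 94 a transgenic one (6.63%), and among the 1984 of the telomeric zones 20 (1.01%) and 90 (4.54%). In the interior the shares were 0.915% and 5.82%, so the shares at the ends lay near the background. End peaks of both libraries were found in 12 coding genes at the centromere-proximal and 10 at the telomeric end.

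Several genes of the centromere-proximal end held more peaks than their length gives at the mean density of the zone. Grin2a, an NMDA receptor subunit gene (chromosome 16, 9567901 to 9996083), held 3 wild-type and 8 transgenic peaks, where the mean densities of the zone give 0.109 and 1.16. Its transgenic folds ran from 3.02 to 4.56 and its wild-type folds from 3.42 to 4.30, all inside the gene body. The window from 9000001 to 10000000 around it held 4 wild-type peaks, the most of any centromere-proximal window, and 12 transgenic peaks, which no window of that end exceeded. Fhit, a diadenosine triphosphate hydrolase gene at a common fragile site (chromosome 14, 9550092 to 11162061), held 3 and 12 peaks against 0.408 and 4.34. Rbfox1, a neuronal splicing regulator (chromosome 16, 5884793 to 7412480), held 1 and 7 against 0.387 and 4.11. Chrm3, a muscarinic receptor gene, held 0 and 6 against 0.124 and 1.31, and Abca13, a lipid transporter gene, 1 and 5 against 0.126 and 1.33. Since the genes were selected by their number of peaks, the excess over the mean is a description.

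The lowest transgenic q, 0.0673, was shared by 46 peaks of this end, and 10 coding genes held one, Grin2a and Pde10a among them. Those of lowest p were Oprm1, the mu opioid receptor (10 fragments, fold 5.48), Actn2 (fold 5.51), Cadps, a vesicle priming factor (fold 5.36), Osbp2 (fold 5.36) and Zdhhc14 (fold 4.93). In the wild type Vsnl1, a neuronal calcium sensor (chromosome 12), held a peak of 9 fragments and fold 5.23 (q 0.708). The transgenic list gave Vsnl1 3 peaks of fold 3.13 to 3.34. Adamts12, a secreted metalloprotease, held 1 peak in each library, and the wild-type one had a fold of 5.29 and the transgenic one of 4.03. Nxph1, a secreted neuronal glycoprotein (fold 5.0), and Ms4a15 (fold 5.10) held 1 wild-type and 0 transgenic peaks. Further genes with peaks of both libraries were Pde10a and Ptprg with 1 and 3, Myo16 with 1 and 2, and Prlr and Cfap20dc with 1 each.

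At the telomeric end the gene with most transgenic peaks was a glypican. Gpc5, which encodes a cell surface proteoglycan (chromosome 14, 115092201 to 116525192), held 0 wild-type and 8 transgenic peaks, where the zone means give 0.416 and 2.98. Its neighbour Gpc6 held 0 and 3 against 0.306 and 2.20. Rbms3, an RNA-binding protein gene, held 1 and 4 against 0.307 and 2.20. Tnni3k, a cardiac kinase gene, held 0 and 4 against 0.0791 and 0.566, and the potassium channel gene Kcnk2 held 0 and 3 against 0.0576 and 0.412. The lowest transgenic q, 0.0673, was shared by 27 telomeric peaks, and 9 coding genes held one. The 5 taken from these by p, then by name, were Gpc5 (fold 5.43), Abcc9, a subunit of ATP-sensitive potassium channels (fold 5.03), Lyplal1 (fold 4.89), Erich3 (fold 4.53) and Lsp1 (10 fragments, fold 4.48).

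No coding gene of the telomeric end held more than 2 wild-type peaks. Lhcgr, the luteinizing hormone receptor (chromosome 17, 88716384 to 88792059), held the one of highest fold, of 9 fragments and fold 5.86 (q 0.324), and 1 transgenic peak of fold 4.41. Tafa2, a secreted neuronal protein, held 2 wild-type peaks (highest fold 4.93) and 1 transgenic peak. Dscam, an adhesion molecule of axon guidance, held 1 peak in each library, of fold 4.72 and 3.47. Pcca, a mitochondrial carboxylase subunit (1 and 2), Hs6st3, a heparan sulfate sulfotransferase (1 and 2), and Disc1, Ak5, Grk5 and Stard13 (1 and 1) were also in both lists. Ajap1 held 1 wild-type peak (fold 4.27) and 0 transgenic ones. The densest telomeric window, from 54431567 to 55431566 on chromosome 19, held 12 transgenic and 0 wild-type peaks around Gpam, Acsl5 and Vti1a.

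The end zones hold only a few genes of each listed group of cortical development. Of the listed radial glia genes Slc1a3, Emx2, Hes5 and Sox9 lie in the zones, and 0 of these 4 held a peak in either library. The same was true of Eomes, Il6st, Fam107a and Lifr, of the cortical neuron genes Fezf2, Rbfox3, Sox5 and Tubb3, and of Dnmt3a, Suv39h2, Cbx5 and Prdm16 among the genes of H3K9 methylation and heterochromatin. At the shares of their zones, 1.34% and 1.01% in the wild type and 6.63% and 4.54% in the transgenic list, 0 of 4 lies near the background. Axon guidance and synapse genes in the zones included Cntn5, with 4 transgenic peaks against 3.42 at the zone mean, and Dscam. On this list 1 of 1 gene at the centromere-proximal and 2 of 2 at the telomeric end held a transgenic peak, and over chromosomes 1 to 19 it was 58.3% of the list. Of ion channel and receptor genes, 2 of 10 at the centromere-proximal end, Grin2a among them, and 6 of 21 at the telomeric end, among them the potassium channel genes Kcnh1, Kcnj6, Kcnk2 and Kcnq1, held a transgenic peak. Over chromosomes 1 to 19 the share of this group was 23.3%, so the shares at the ends, 20% and 28.6%, lay near that of the group as a whole.

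Imprinted genes, expressed from 1 parental allele, cluster near several chromosome ends. Of the 14 on the list that lie at the centromere-proximal end, Cobl, Ddc, Impact and Usp29 held 1 transgenic peak each, with folds from 2.88 to 3.41, and 0 held a wild-type peak. That is 28.6% of the list at this end, against 16.7% of the list over chromosomes 1 to 19 and 11.8% in the interior, and against 6.63% of all coding genes at this end. The share rests on 4 genes, has no interval and takes no account of gene length, so it cannot show an excess. At the mean density of the zone the lengths of these genes give from 0.113 (Impact) to 0.646 (Usp29) transgenic peaks. Of the 11 at the telomeric end only Kcnq1 held peaks, 2 transgenic ones of fold 4.08 and 3.78. The window of chromosome 7 that holds Igf2, Ins2, Th, Ascl2 and Kcnq1 (142441460 to 143441459) had 9 transgenic and 0 wild-type peaks. Large gene families held few peaks, both at the ends and over chromosomes 1 to 19 as a whole. The zones hold 77 Zfp zinc finger genes, 126 olfactory receptor genes and 68 vomeronasal receptor genes, and the only ones with a peak were Zfp831 in the wild type and Olfr771 in the transgenic list. Over chromosomes 1 to 19 the transgenic shares of these families were 0.773%, 0.997% and 1.42%, against 5.75% of all coding genes. These shares take no account of gene length, so they cannot show that peaks avoid the families. Olfr771 is 0.954 kb long, and the mean density of its zone gives it 0.0103 transgenic peaks. Zfp831 is 112 kb long and is given 0.241. Of the 4 genes of the endothelial and mural list in the zones, Col1a2 and Abcc9 held 2 transgenic peaks each. Flt1 and Kcnj8 held 0 peaks in either library. Over chromosomes 1 to 19, 3 of the 13 genes of this list (23.1%) and 5.75% of all coding genes held a transgenic peak. So few genes cannot show that the list differs. The microglial gene Cx3cr1 held 0 peaks.

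The libraries rarely marked the same place at the ends. Of the 103 wild-type end peaks 0 overlapped a transgenic one, and 4 of the 639 interior ones did. Within 1 kb of a transgenic peak lay 3 of 48 at the centromere-proximal end, or 6.25% (1.31 to 17.2), and 1 of 55 at the telomeric end, or 1.82% (0.0460 to 9.72), against 2.82% (1.68 to 4.42) in the interior. Within 10 kb these were 8 (16.7%) and 2 (3.64%), against 10.2% in the interior, with intervals of 7.48 to 30.2 and 0.443 to 12.5. Among the close pairs, a wild-type peak in Pde10a (7 fragments, fold 3.68) lay 745 bp from a transgenic peak of 10 fragments and fold 4.0. A wild-type peak 20.3 kb from Rbfox1 lay 477 bp from a transgenic one, and the telomeric pair, on chromosome 4, was 153 bp apart and 338 kb from Ajap1. The transgenic density differs between the zones, and a distance to a transgenic peak moves with it.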

How the data were processed

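H3K9me2 ChIP sequencing had been done on embryonic cortex, 1 wild-type and 1 TBC1D3-transgenic library, grouped by the genotype label. Per the submitters' processing notes, BWA (version not given in the sources used here), MACS2 and build mm10 were used. The authors ran, per the file headers, MACS 2.1.0.20150420 on each library against its own input, with a p cutoff of 0.001 and summits. The deposited pileup signal is extended fragments at the summit, and in the wild type it was divided by 0.951 to give fragments. The deposited fold is the ratio of pileup plus 1 to local background plus 1. The −log10 p and −log10 q are deposited values of the caller. The headers say that q was not calculated, yet it is listed, and it was used as listed.

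Summits were assigned to zones with the mm10 chromosome lengths, which were entered by hand and which no peak or gene exceeds. Genes came from a RefSeq table of GRCm38.p6, without strand or exons. Of 47038 genes, 333 listed out of coordinate order were left out as lying on scaffolds, and 46705 (20554 coding) were used. Densities have exact Poisson, shares exact (Clopper-Pearson) and ratios exact conditional 95% intervals, checked on simulated peaks, with Python 3.11.15, SciPy 1.17.1 and pandas 2.3.3. Intervals cover counting error only.

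Members, zones and gene lists were chosen with earlier results of these data known. Named genes were, per library and end, the 5 coding genes with most peaks and the 5 holding the peaks of lowest q, genes with peaks of both libraries, up to 4 members of each list and the genes nearest to the outermost peaks. Names outside this rule, such as genes of dense windows and promoters, were chosen with their values in view. Some genes meeting the rule are not reported here. Base composition and repeats of the peaks had been planned and were not analysed here. Alternatives were other thresholds, zone sizes, merged peaks, midpoints, other interiors, a shortened transgenic list and chromosomes left out in turn.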

Additional observations from a re-analysis of the deposited data

How the results depend on the processing

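Of 199 alternative values of the density ratios, 173 stayed inside the interval of the reported value, and 26 moved out of it. None turned a reported ratio whose interval excludes 1 to its other side. The reported interval of the transgenic centromere-proximal ratio to the interior includes 1. That interval lay below 1 with zones of 5 Mb. It lay above 1 without chromosomes 7 and 19, and also with the outermost 1 Mb left out. The cause of the changes was not tested, except that thresholds and smaller zones leave fewer peaks. No paired analysis was possible because each genotype has 1 library. Leaving out 0.1 Mb of sequence at the telomeric tip, chromosomes 7 and 19 together, and peaks in genes over 1 Mb were chosen after seeing the data. With each chromosome left out in turn, the transgenic ratio of telomeric end to interior ran from 0.758 to 0.844, of centromere-proximal end to interior from 1.02 to 1.09, and between the ends from 1.22 to 1.44, and in the wild type these ran from 0.868 to 0.974, 0.692 to 0.860 and 0.755 to 0.960. With only peaks of −log10 p 5 or more, the wild-type telomeric ratio became 0.60 and the transgenic one 0.693, the ratio between the ends 1.78 and 1.60, and the transgenic to wild-type ratio 12.2 at the telomeric end and 10.6 in the interior. At a fold of at least 5 the centromere-proximal ratio was 1.64 and 1.57, the telomeric ratio 0.410 and 0.470, and the ratio between the ends 4.0 and 3.33, and the transgenic to wild-type ratio was 2.5, 3.0 and 2.62 at the centromere-proximal end, the telomeric end and in the interior. Zones of 5 Mb gave a centromere-proximal ratio of 0.366 and 0.862, a ratio between the ends of 0.367 and 1.07, and a transgenic to wild-type ratio of 19.1 at the centromere-proximal end. Zones of 20 Mb gave transgenic ratios of 0.946 for the centromere-proximal end and 1.06 between the ends. The transgenic list cut to the wild-type length gave 0.688 for the telomeric end and 1.63 between the ends, and without chromosomes 7 and 19 these were 0.715 and 1.59.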

Other observations

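Just beyond the zones, both libraries had fewer peaks on the centromere-proximal than on the telomeric side, which in the transgenic list is the opposite of the order inside the zones. From 10 to 20 Mb past the assembled start there were 38 wild-type peaks, or 0.20 per Mb (0.142 to 0.275), and 424 transgenic peaks, or 2.23 per Mb (2.02 to 2.45). At the same distance from the chromosome end there were 72, or 0.379 per Mb (0.297 to 0.477), and 487, or 2.56 per Mb (2.34 to 2.80). The interior means were 0.315 and 2.56. The lowest transgenic step on that side lay 17 to 18 Mb from the assembled start, with 24 peaks over the 19 chromosomes.

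Empty windows were more common in the telomeric zones, which also had a lower transgenic density. Of 190 windows of 1 Mb, 53 telomeric ones (27.9%) and 38 centromere-proximal ones (20%) held no transgenic peak, against 15.8% of 2017 interior windows. Of the empty telomeric windows 26 lay in the outer 5 Mb and 27 in the inner. At the centromere-proximal end these were 25 and 13. The median window held 7 coding genes in the telomeric zones and 5 in the others, and the part this plays was not tested.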
